A study of Arabidopsis thaliana with 6 samples.

Results

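The genes described here are AT4G15660, AT4G15670, AT4G15680, AT4G15690 and AT4G15700, 5 glutaredoxin genes of the CC type that follow one another on chromosome 4 of Arabidopsis thaliana. They were chosen by locus, and each was represented by the brightest probe set that named it alone. Each of the 5 had 1 such probe set, out of 28501 tested probe sets and 16405 genes named by a probe set alone. The mean intensity over all arrays was the value that chose a probe set, so it is given as a description, and with 1 probe set per gene it decided nothing. The cluster was picked with earlier results of these data known.

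The study hybridized Affymetrix whole-transcript arrays with RNA of ara6-1, labelled a knock-out mutant of the RAB5 GTPase gene ARA6, and of the wild type (WT), with 3 arrays of each, 1 per biological replicate. Both groups were of the Columbia accession, were 14 days old, and were harvested as whole plants. They had been raised on MS plates at 23 °C in constant light after 1 day at 4 °C, and no treatment separated them. ara6-1 was the only mutant line measured, so its genotype and its line background cannot be told apart. The replicates are biological by label, with no word on separate sowings or plates. The p-values therefore refer to these samples, and whether they extend to other sowings cannot be told.

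Glutaredoxins are small proteins that use glutathione to reduce disulfides or to carry iron-sulfur clusters. The CC type, named after adjacent cysteines in the active site, is found in land plants, where its members bind TGA transcription factors and, through them, act on gene expression. In Arabidopsis, genes of the chromosome 4 cluster are known to be induced by nitrate and by cytokinin and to restrain growth of the primary root.

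All 5 genes had lower mean intensity in ara6-1 than in WT, against 50.4% of all tested probe sets with a negative difference. The largest difference was that of AT4G15700, 2.58-fold lower in ara6-1, and the smallest that of AT4G15660, 1.22-fold lower. By limma, with p-values adjusted over all probe sets after Benjamini and Hochberg, 0 of the 5 passed the threshold of 0.05, which 0.0105% of probe sets (3 of 28501) passed. Unadjusted p-values under 0.05 in limma were found for 3 of the 5 (AT4G15670, AT4G15680 and AT4G15700), against 5.39% of all probe sets that were lower at that level. In AT4G15670 and AT4G15700 every ara6-1 array lay below every WT array, as in 7.85% of all probe sets. The median log2 fold change of the 5 was -0.59, and that of all tested probe sets was -0.00182. In these whole-plant samples, fewer cells that express a gene and less transcript per cell cannot be told apart.

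AT4G15700, the last gene of the row, was the clearest case (probe set 13469199). Its log2 intensity was 5.18, 4.36 and 4.55 in ara6-1 replicates 1 to 3, against 5.99, 6.26 and 5.94 in WT replicates 1 to 3. The groups were apart by 0.75 at their closest, between ara6-1 replicate 1 and WT replicate 3. Group means were 4.70 ± 0.43 in ara6-1 and 6.06 ± 0.18 in WT (SD, n = 3 each). The log2 fold change was -1.37 (SE 0.22), and its 95% interval ran from -1.87 to -0.86 (unadjusted p = 3.38e-04, adjusted p = 0.435 by limma). By unadjusted p it stood at rank 21 of the 28501 probe sets. Among the 3908 probe sets whose mean lay within 0.5 of its own on the log2 scale, it alone (0.0256%) was lower by that much. With a prior variance that follows intensity its adjusted p in limma was 0.0717, the lowest among the 17 alternatives.

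AT4G15680, in the middle of the row, showed the next largest difference (probe set 13469191). Its log2 intensity was 4.14, 3.19 and 3.32 in ara6-1 replicates 1 to 3, against 3.97, 4.29 and 4.78 in WT replicates 1 to 3. The groups overlapped, because ara6-1 replicate 1 lay above WT replicate 1. Means were 3.55 ± 0.51 in ara6-1 and 4.35 ± 0.41 in WT (SD, n = 3 each), and the log2 fold change was -0.80 (SE 0.29, unadjusted p = 0.0285, adjusted p = 0.542 by limma). Of 3563 probe sets within 0.5 of its mean log2 intensity, 0.449% were lower by as much or more, itself included.

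AT4G15670, the second gene of the row, had separated groups at a smaller distance (probe set 13469187). Its log2 intensity was 3.72, 3.32 and 3.64 in ara6-1 replicates 1 to 3, against 4.06, 4.58 and 3.81 in WT replicates 1 to 3. The highest ara6-1 value (replicate 1, intensity 13.2) and the lowest WT value (replicate 3, intensity 14.0) were nearly equal, so the separation was narrow. With means of 3.56 ± 0.21 in ara6-1 and 4.15 ± 0.40 in WT (SD, n = 3 each), the log2 fold change was -0.59 (SE 0.21, unadjusted p = 0.0254, adjusted p = 0.541 by limma). As large a negative difference, or a larger one, was found in 1.47% of 3605 probe sets of like intensity. Without WT replicate 2 the log2 fold change of AT4G15670 was -0.37.

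AT4G15690 and AT4G15660 did not separate the groups. AT4G15690 (probe set 13469195) had log2 intensities of 2.85, 2.46 and 1.85 in ara6-1 replicates 1 to 3, against 2.91, 2.93 and 2.66 in WT replicates 1 to 3. Only ara6-1 replicates 2 and 3 lay below all WT arrays. Its log2 fold change was -0.44 with a 95% interval of -1.01 to 0.12 (adjusted p = 0.613 by limma), and 5.32% of 4268 probe sets of like intensity were lower by as much. The linear intensities of AT4G15690, 3.6 to 7.2 in ara6-1 and 6.3 to 7.6 in WT, lay around or below the 25th percentile of each array (7.1 to 7.8), without a detection call. How large its difference was is therefore uncertain. Without ara6-1 replicate 3 the log2 fold change was -0.18, and without ara6-1 replicate 1 it was -0.68.

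AT4G15660, the first gene of the row (probe set 13469183), had log2 intensities of 4.13, 3.66 and 4.20 in ara6-1 replicates 1 to 3, against 3.73, 4.57 and 4.54 in WT replicates 1 to 3. WT replicate 1 was lower than ara6-1 replicates 1 and 3, and the other 2 WT arrays were above all ara6-1 arrays. The log2 fold change was -0.29 with a 95% interval of -0.88 to 0.31 (adjusted p = 0.742 by limma). It was -0.12 without ara6-1 replicate 2, -0.14 without WT replicate 2, -0.16 without WT replicate 3 and -0.56 without WT replicate 1. A negative difference of that size or more was found in 10.7% of 3573 probe sets of like intensity. Of the 5 genes, AT4G15660 had the highest p and the largest share of like probe sets with as low a value.

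**Figure D1:**
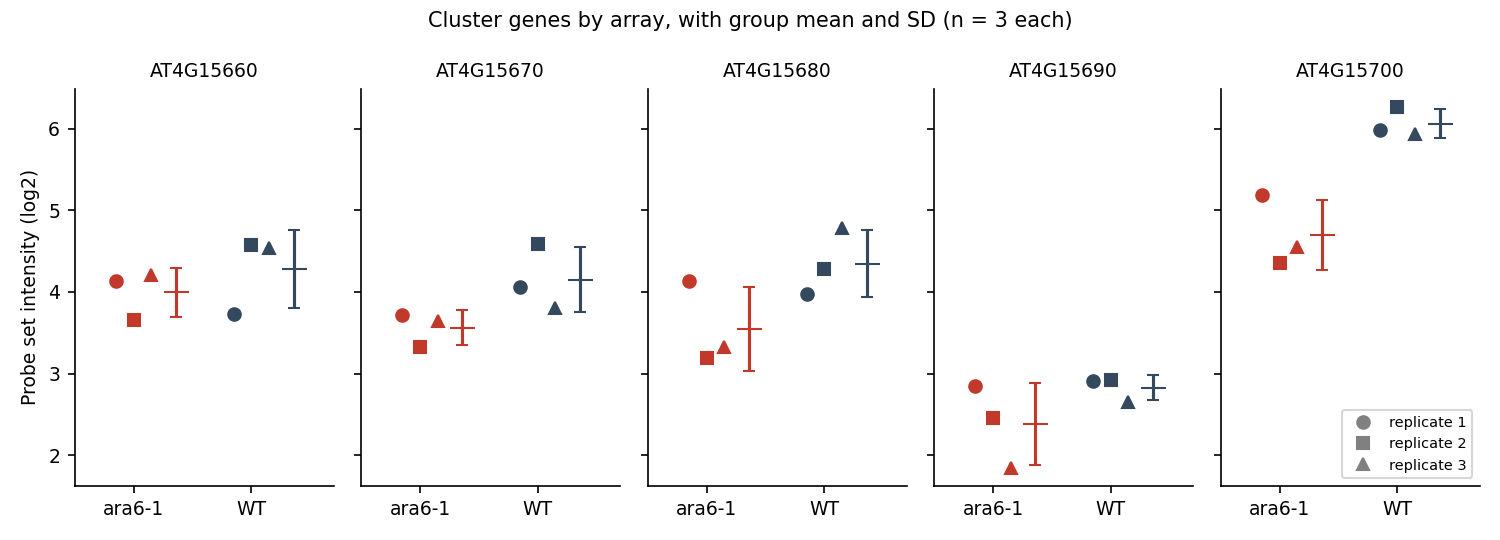
Log2 probe set intensity of the 5 cluster genes, 1 panel per gene, with ara6-1 (red) left of WT (dark grey). Points are single arrays with a marker for each replicate number, and the bars give the group mean and SD (n = 3 each). The groups are apart in AT4G15670 and AT4G15700, and the gap is wide only in AT4G15700.

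All 5 genes were dim to moderate on these arrays. AT4G15660, AT4G15670, AT4G15680 and AT4G15690 had mean log2 intensities at percentiles 41.1, 37.6, 38.7 and 21.0 of all tested probe sets, and AT4G15700 at percentile 57.1. Brightness also depends on the probes, so these positions do not rank the transcripts by abundance. The spread between replicates was larger than usual for such intensities. Residual SDs of the 5 genes ran from 0.318 to 0.464 on the log2 scale, while the median over probe sets within 0.5 of each gene's mean ran from 0.162 to 0.235. For AT4G15700 the residual SD was 0.330 against a median of 0.162.

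**Figure D2:**
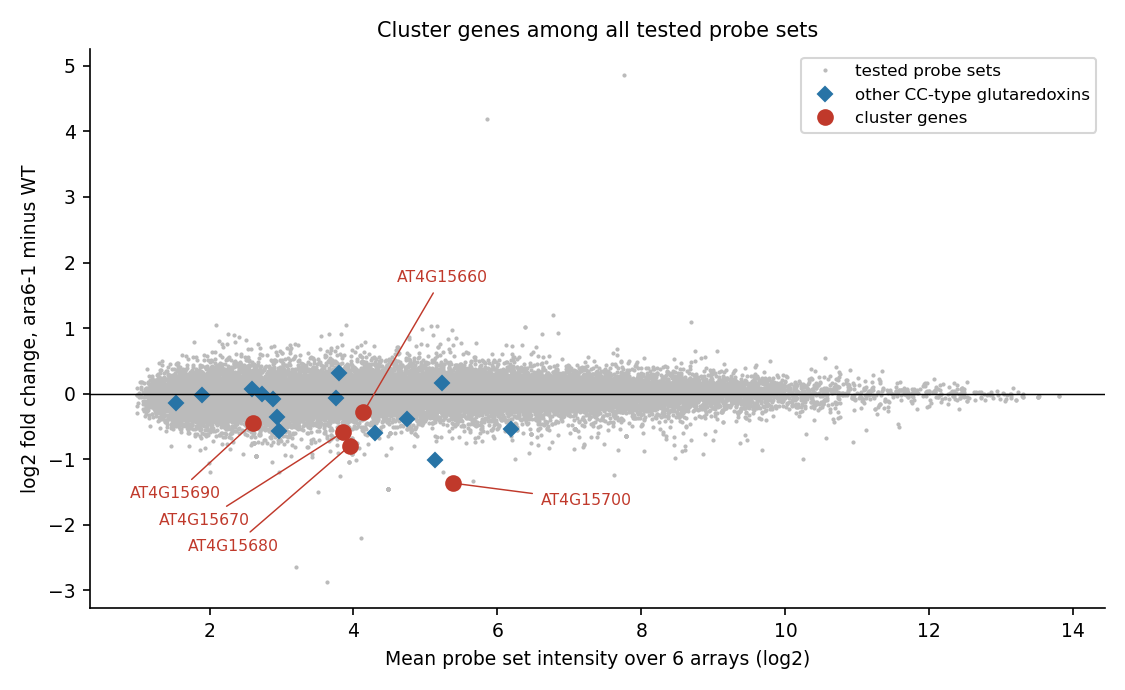
Log2 fold change (ara6-1 minus WT) against mean log2 intensity over 6 arrays, for all 28501 tested probe sets (grey), the 14 other measured CC-type glutaredoxin genes (blue) and the 5 cluster genes (red). AT4G15700, at -1.37, lies at the lower edge of the cloud for its intensity, and AT4G15660, at -0.29, lies inside it.

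The intensity of AT4G15700 was also set against that of each other cluster gene within the same array. The other 4 probe sets are dim, and a pseudocount of 16 alone takes AT4G15690 from -0.44 to -0.11, so these ratios do not tell an equal change of the transcripts from an unequal one. AT4G15690 was not shown to be above background, which leaves its ratio the least certain. The log2 ratio of AT4G15700 to AT4G15690 was 2.31 ± 0.40 in ara6-1 and 3.23 ± 0.14 in WT (SD, n = 3 each). For AT4G15700 over AT4G15660 it was 0.70 ± 0.35 in ara6-1 and 1.78 ± 0.43 in WT, and over AT4G15670 it was 1.13 ± 0.29 in ara6-1 and 1.91 ± 0.22 in WT (SD, n = 3 each). In these 3 ratios the genotypes did not overlap, with differences of -0.92, -1.08 and -0.78. The ratios share the values of AT4G15700, which had the largest difference of the cluster, so in part they restate it. How often ratios of genes outside the cluster separate the genotypes was not counted. AT4G15700 over AT4G15680 overlapped, at 1.15 ± 0.09 in ara6-1 and 1.72 ± 0.49 in WT, because WT replicate 3, at 1.15, lay among the mutant arrays. A two-sided exact permutation test of 3 arrays against 3 cannot give a p under 0.1, which each of the 3 separated ratios reached. Adjusted over the 10 pairs of cluster genes the exact p was 0.333 for these 3. With a smallest possible p of 0.1, no ratio could pass the adjusted threshold, whatever its values. The permutation test therefore cannot decide whether the ratios differ between the genotypes. The 6 pairs without AT4G15700 all overlapped, with differences from -0.51 to 0.35.

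**Figure D3:**
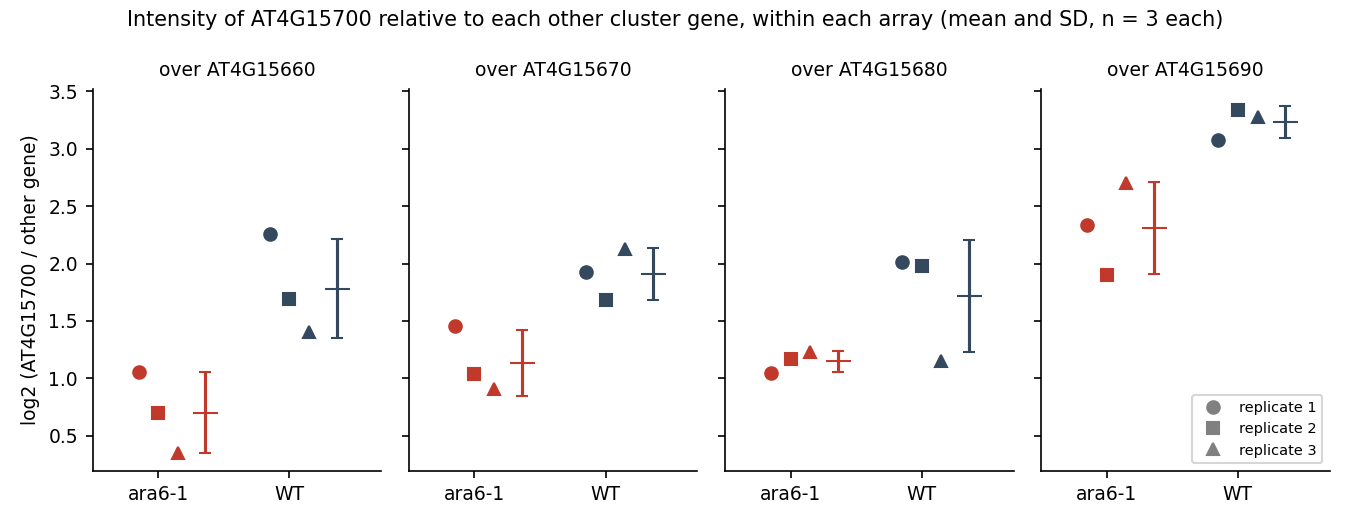
Log2 ratio of the intensity of AT4G15700 to that of each other cluster gene within the same array, with ara6-1 (red) left of WT (dark grey). Points are arrays, and bars give the mean and SD (n = 3 each). The ratio is lower in all ara6-1 arrays in 3 of the 4 panels, and in the panel for AT4G15680 WT replicate 3 lies among the mutant arrays.

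The replicates were compared across the 5 genes. Over the 6 arrays, Pearson correlations between pairs of the 5 genes ran from 0.0720 (AT4G15660 with AT4G15690) to 0.863 (AT4G15670 with AT4G15700), with a median of 0.599 over 10 pairs. After each group's mean was subtracted, 9 of the 10 pairs were positive, with a median of 0.415 and a range of -0.225 to 0.680. Without ara6-1 replicate 1, a choice made after seeing the data, 4 of the 10 were positive. The median was then -0.0848, with a range of -0.604 to 0.981. The other arrays were not left out in turn, so whether this drop is particular to ara6-1 replicate 1 was not tested. These correlations share the same arrays, were not set against other gene pairs, and are given as a description. ara6-1 replicate 1 had the highest ara6-1 value in 4 of the 5 genes and lay above the ara6-1 mean in all 5. WT replicate 2 had the highest WT value in 4 of the 5. The mean log2 intensity of the 5 genes was 4.00, 3.40 and 3.51 in ara6-1 replicates 1 to 3, against 4.13, 4.53 and 4.34 in WT replicates 1 to 3.

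ara6-1 replicate 1 is also an array that stood apart from the rest of its group over the whole table, as was WT replicate 3. Over probe sets above the median intensity, the SDs of their deviations from the group means were 0.165 and 0.169, while those of the other 4 arrays were 0.120 to 0.126. Without ara6-1 replicate 1, the log2 fold change of AT4G15700 was -1.61 (adjusted p = 0.129 by limma) and that of AT4G15680 was -1.09 (adjusted p = 0.383 by limma). The groups were then apart in 4 of the 5 genes, against 15.7% of all probe sets. Without WT replicate 1 they were apart in 4 of the 5, against 12.2%, and without WT replicate 3 in 3 of the 5, against 14.3%. Without WT replicate 2, ara6-1 replicate 2 or ara6-1 replicate 3 they were apart in 2 of the 5, against 13.0%, 11.3% and 11.5%. With ara6-1 replicate 1 and WT replicate 3 both left out, it was again 4 of the 5, against 23.0% of all probe sets, and AT4G15700 differed by -1.67 on the log2 scale (adjusted p = 0.349 by limma). The 5 genes kept a negative log2 fold change without any single array, and the part of array quality in these values was not tested.

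The genes on either side of the row were examined next. The RefSeq gene order of TAIR10.1 placed no other protein-coding gene between the 5 members. Of the 10 protein-coding genes on each side, 9 of 20 were matched to a probe set of their own. Their log2 fold changes ran from -0.26 to 0.15, with a median of -0.07, and 6 of the 9 were negative, against 50.4% of all probe sets. None of the 9 passed in limma (smallest adjusted p = 0.549), and 1, AT4G15740, was lower in all ara6-1 arrays than in any WT array, a share near the 7.85% of all probe sets. It had a log2 intensity of 4.26 ± 0.09 in ara6-1 and 4.51 ± 0.08 in WT (SD, n = 3 each), which is a difference of -0.25 (unadjusted p = 0.0368, adjusted p = 0.549 by limma). The genes directly next to the row did not pass, with wide intervals. AT4G15650, just before AT4G15660, differed by -0.12 on the log2 scale (95% interval -0.62 to 0.38, adjusted p = 0.873 by limma), and AT4G15710, just after AT4G15700, had -0.23 (95% interval -0.78 to 0.32, adjusted p = 0.775 by limma). Both were dim, with intensities of 5.8 to 10.2 and 6.7 to 13.6, and their intervals include the differences of several cluster genes. Further out, AT4G15563 stood at -0.26, AT4G15640 at 0.15, AT4G15755 at 0.12 and AT4G15750 at 0.11. AT4G15700, AT4G15680, AT4G15670 and AT4G15690 had more negative point estimates than any measured neighbour, and the difference of AT4G15660 was about that of AT4G15563. Whether the row differs from its neighbours was not tested.

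**Figure D4:**
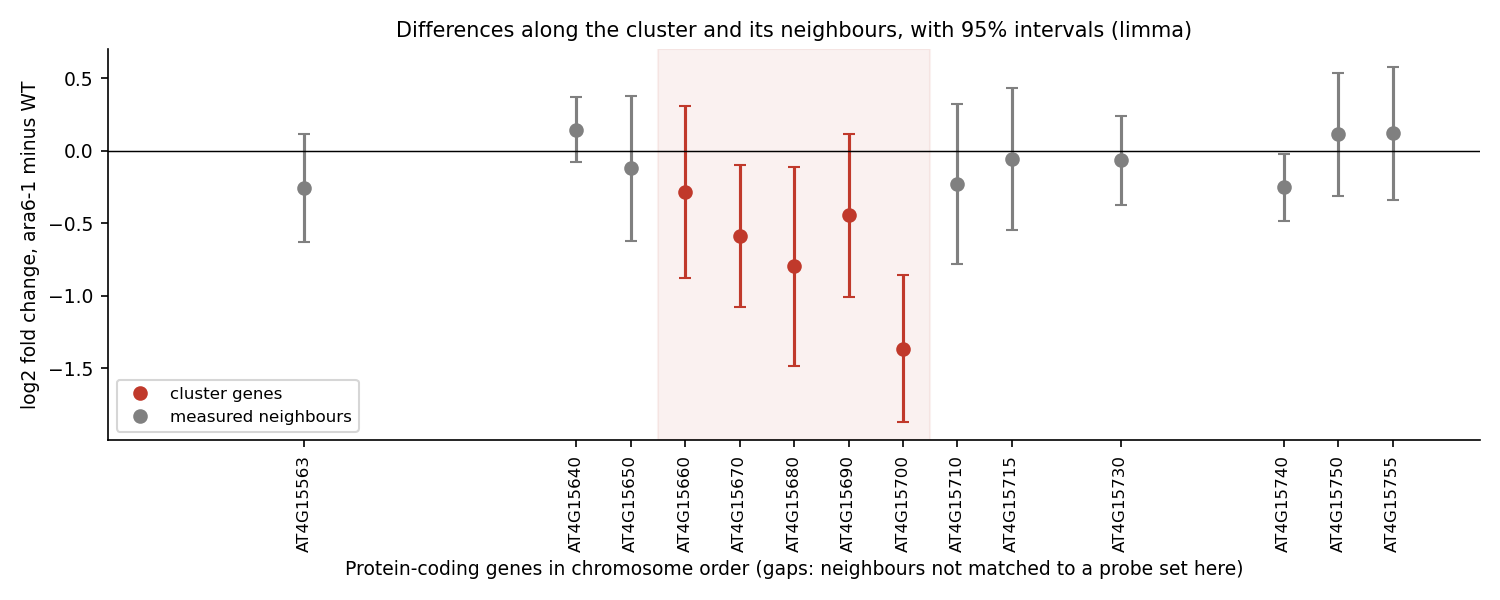
Log2 fold change (ara6-1 minus WT) with the 95% interval from limma, for the 5 cluster genes (red, shaded) and the 9 measured neighbours (grey), in the order of protein-coding genes along the chromosome. The neighbours lie between -0.26 and 0.15, and the cluster genes between -1.37 and -0.29.

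The same family has 16 further CC-type genes elsewhere in the genome, of which 14 were measured. In limma 0 of the 14 passed the adjusted threshold, 11 had negative log2 fold changes (50.4% of all probe sets did), and their median was -0.11. In 3 of the 14 all ara6-1 arrays lay below all WT arrays, against 7.85% of all probe sets, and in 0 above. AT1G06830 had log2 intensities of 4.55, 4.67 and 4.66 in ara6-1 replicates 1 to 3, against 5.86, 5.75 and 5.30 in WT replicates 1 to 3, and a log2 difference of -1.01 (adjusted p = 0.423 by limma). AT2G30540 had -0.60 (adjusted p = 0.435 by limma) and AT5G18600 had -0.54 (adjusted p = 0.517 by limma). AT3G62950, with overlapping groups, had -0.57 (adjusted p = 0.544 by limma). Genes of the family best known for development and defence had intensities of 2.5 to 7.9, near the low end of the arrays, where the size of a difference is not determined. ROXY1 (AT3G02000), which governs petal development, had -0.03, ROXY2 (AT5G14070), which acts with it in anthers, had 0.08, and GRX480 (AT1G28480), which links salicylic acid to jasmonate responses, had -0.14. ara6-1 replicate 1 was the highest mutant array in 4 of these 14 genes, AT5G18600 among them, and the lowest in 6.

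**Figure D5:**
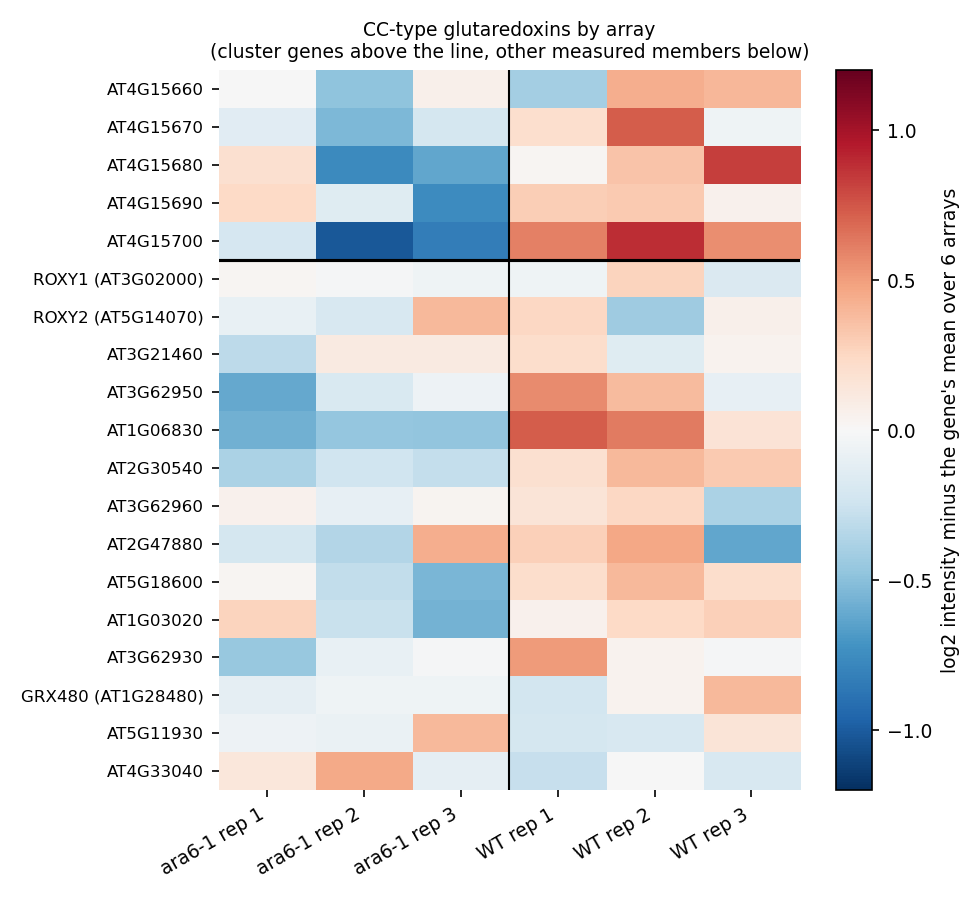
Log2 intensity minus each gene's mean over 6 arrays, for the 5 cluster genes (above the line) and the 14 other measured CC-type glutaredoxin genes (below it), with the 3 ara6-1 arrays left of the 3 WT arrays. Red is above and blue below the gene's mean. AT4G15700 is blue in all ara6-1 arrays, least so in replicate 1, and AT1G06830 and AT2G30540 below the line are blue in all ara6-1 arrays.

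Glutaredoxins outside the CC type were covered in part. Of the 6 listed genes of the CPYC type 5 were measured, and of the 4 of the CGFS type 0. Among the 5, 4 had negative log2 fold changes, against 50.4% of all probe sets, and 0 passed in limma. They were AT1G77370 (-0.14), GRXC2 (AT5G40370, -0.10), AT5G20500 (-0.09), GrxC5 (AT4G28730, -0.09) and GRXC1 (AT5G63030, 0.11), with a median of -0.09.

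Few genes of the pathways around the cluster could be matched to a probe set. The list of TGA factors (10 genes) and that of TOPLESS co-repressors (5 genes) had 0 measured members, and the nitrate and CEP peptide list had 1 of 20, AT3G25790, at 0.40 (adjusted p = 0.634 by limma). Of the 13 listed cytokinin response genes 2 were measured. RR16 (AT2G40670), a response regulator induced by cytokinin that damps the signal, had a log2 intensity of 6.44 ± 0.25 in ara6-1 and 6.99 ± 0.07 in WT (SD, n = 3 each). Its groups did not overlap, and they differed by -0.55 (adjusted p = 0.506 by limma). ARR15 (AT1G74890), of the same kind, had -0.37 (adjusted p = 0.825 by limma), with an SD of 1.12 within WT. These lists are too thinly measured to describe their pathways.

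The genes whose array pattern was nearest to the mean pattern of the cluster were sought among 16400 other named genes, by the root mean square difference between profiles centred over the 6 arrays. The nearest 8 had distances of 0.101 to 0.142 on the log2 scale, where a flat profile had 0.411. They were AT1G65760, AT3G33293, the chloroplast gene psbN, the calmodulin-like gene CML41 (AT3G50770), the cysteine-rich peptide gene LCR73 (AT2G02147), AT1G22890, AT5G25320 and AT3G28520. AT1G65760 was the nearest, with Pearson r = 0.984 over 6 arrays and a log2 difference of -0.82 (adjusted p = 0.501 by limma). psbN averaged 10.58 ± 0.27 in ara6-1 and 11.31 ± 0.07 in WT (SD, n = 3 each), which is a difference of -0.73 (adjusted p = 0.457 by limma). CML41 had -0.75 (adjusted p = 0.506 by limma) and AT1G22890 had -0.67 (adjusted p = 0.452 by limma). The mean pattern itself differed by -0.70 between ara6-1 and WT. Negative differences in the 8 genes therefore follow from how they were chosen and are given as a description. AT5G18600, a CC-type gene outside the cluster, came at rank 14. The cluster genes themselves, each compared with a mean that includes it, would rank between 142 (AT4G15670) and 2581 (AT4G15700). The difference of AT4G15700 was larger than that of the mean. Those of AT4G15660, at rank 1513, and AT4G15690, at rank 745, were smaller. A high r over 6 arrays was not particular to these 8 genes: 305 of the 16400 reached r of 0.9 or more. Ranked by r in place of distance, 0 of the same 8 genes were among the first 8.

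ARA6 (AT3G54840), the mutated gene, had a log2 intensity of 7.01 ± 0.13 in ara6-1 and 8.24 ± 0.22 in WT (SD, n = 3 each), which is a difference of -1.24 (adjusted p = 0.140 by limma). In ara6-1 the probe set still read 119 to 142 in linear intensity, against 255 to 337 in WT, well above the array medians of 28.8 to 29.2, and where its probes lie was not analysed here. Markers of green tissue and of roots gave signal in both genotypes. Of the 6 listed green tissue markers 2 were measured, LHCB4.1 (AT5G01530) at 9.91 in ara6-1 and 9.74 in WT and SBPASE (AT3G55800) at 11.40 in ara6-1 and 11.32 in WT. Of the 5 root markers 3 were measured. PYK10 (AT3G09260) stood at 12.33 in ara6-1 and 12.22 in WT, EXPA7 (AT1G12560) at 5.65 in ara6-1 and 5.55 in WT and EXPA18 (AT1G62980) at 6.36 in ara6-1 and 6.39 in WT. LHCB4.1 and PYK10 were higher in all ara6-1 arrays than in any WT array, with log2 fold changes of 0.17 and 0.11. The share of all probe sets that were higher in this way was not counted, and 0 of the 5 markers passed in limma. The part of tissue composition in the values of the cluster genes was not tested.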

How the data were processed

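Total RNA was labelled with biotin and hybridized to Affymetrix whole-transcript arrays, with each sample on an array of its own, as the labels' protocols say. The deposited values were linear intensity values, 1 for each probe set. Per the submitters' processing notes, the authors used Affymetrix Expression Console 1.3. Its summarization method and the genome build are not given in the sources used here, so no coordinates are printed. Array medians were 28.8 to 29.2, and the values were not normalized again. Of 38408 rows, 28501 with at most 1 decimal were tested. The other 9907, whose nature no source states, were left out and added back as an alternative.

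Genes were named from the platform's probe table and updated through RefSeq TAIR10.1. Of the tested probe sets 16704 named 1 gene (16556 were found in RefSeq), 744 named several and 11053 had none. Each of the 5 cluster genes had 1 probe set, no probe set named several of them, and none had values identical to another probe set. Probe sequences were not used here, so whether a probe set also reads a tandem copy was not tested.

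Groups were compared on log2 intensity with lmFit and eBayes of limma 3.58.1 (R 4.3.3), two-sided. The p-values of 28501 probe sets were adjusted together after Benjamini and Hochberg, at a threshold of 0.05. The fit was tested on simulated data. Precision is limited by the number of arrays. Named genes are the 5 members, up to 4 genes per list by smallest p, up to 6 neighbours by smallest p, the 8 genes with the most alike profile, and ARA6. AT3G02000, AT5G14070, AT1G28480, GrxC5 and AT4G15650 were named after their values were seen. The tissue markers are named as a list. The members and lists were chosen with earlier results of these data known.

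The alternatives renormalized or centred the arrays, changed the variance model, weighted the arrays, added a replicate block, a pseudocount of 16 or a filter on dim probe sets, tested all rows, or left out arrays. Same-numbered arrays of the 2 genotypes had deviations that correlated at -0.196, 0.174 and -0.150 over 14250 probe sets, so the numbers were not taken to pair the samples. Across numbers, ara6-1 replicate 1 correlated at 0.289 with WT replicate 3 and at -0.200 with WT replicate 2. For ara6-1 replicate 2 the values were 0.160 with WT replicate 1 and -0.243 with WT replicate 3. For ara6-1 replicate 3 they were 0.107 with WT replicate 1 and 0.0987 with WT replicate 2.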

Additional observations from a re-analysis of the deposited data

How the results depend on the processing

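All 5 cluster genes kept a negative log2 fold change in every alternative in which they were tested, and 0 of them passed an adjusted p of 0.05 in limma under any alternative or of 0.1 under the original settings. AT4G15700 ranged from -1.67 to -0.97 over 17 alternatives (adjusted p 0.0717 to 0.804), the smallest size coming with a pseudocount of 16, which shrinks dim values. AT4G15660 ranged from -0.56 to -0.12, AT4G15670 from -0.84 to -0.29, AT4G15680 from -1.12 to -0.39 and AT4G15690 from -0.76 to -0.11. The -1.12 of AT4G15680 came without WT replicate 2 and ara6-1 replicate 1 together, an alternative that was not planned. AT4G15690 was not tested when probe sets under the 25th percentile of mean intensity were left out. The number of cluster genes lower at an unadjusted p under 0.05 was 3 and ranged from 1 to 4, while the share of all probe sets lower at that level ranged from 3.69% to 7.41%. It was 1 with the unmoderated test, without WT replicate 2 or without ara6-1 replicate 2. The number whose groups did not overlap was 2 and ranged from 2 to 4 without single arrays, with 4 without ara6-1 replicate 1 or without WT replicate 1. It was also 4 without WT replicate 3 and ara6-1 replicate 1 together, a choice made after seeing the data.

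Of all tested probe sets, 3 passed the threshold. This count was 16 where the prior variance follows intensity, 0 with an unmoderated test (2556 at an unadjusted p under 0.05) and 1 without WT replicate 3 and ara6-1 replicate 1. Without single arrays it was 2 to 4. The cause of these shifts was not tested. With the replicate number as a block, 2 probe sets passed in all, 0 cluster genes did, and AT4G15700 had an adjusted p of 0.623 in limma. The alternative of other probe sets per gene gave no value, since each gene had 1.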
